A study of Mus musculus with 24 samples.

Results

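BIRC5, CDCA8, PRC1, ECT2, CEP55, NUSAP1, HMMR and TOP2A are 8 genes that act late in mitosis, in the chromosomal passenger complex, at the central spindle, in the final cut between daughter cells, and on spindle fibres and chromosomes. They were chosen by name, through the array's gene symbols, from the 14884 genes that the probe table names. Earlier results of these data were known at that point. The shares of all genes given below are therefore background and no test of the 8 as a set. Each had 1 probe set, so the rule of keeping the brightest probe set per gene made no choice among them. All 8 were measured and none was removed by a filter on low values.

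The tumours were plasmacytomas of MM.1S, a human multiple myeloma cell line, grown under the skin of CB17-SCID mice, an immunodeficient strain that lacks mature B and T cells. All groups share this host and this 1 line, and the labels give no age of the mice. Treatment lasted 2 days and comprised filanesib at 10 mg/kg, pomalidomide at 8 mg/kg and dexamethasone at 0.5 mg/kg. The 8 groups of 3 arrays were the triple combination of filanesib, pomalidomide and dexamethasone, filanesib with pomalidomide, filanesib with dexamethasone, filanesib alone, pomalidomide with dexamethasone, pomalidomide alone, dexamethasone alone, and control tumours given the PBS vehicle. Mus musculus is given as the organism, but the probes name human genes, so RNA of the host could contribute only by cross-hybridisation. Nothing in the labels ties each array to its own animal, so the spread behind the p-values may in part be technical.

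Filanesib inhibits KIF11, the kinesin that pushes the spindle poles apart, and cells exposed to such inhibitors stop in mitosis with a monopolar spindle. Pomalidomide acts through cereblon, which then marks the transcription factors IKZF1 and IKZF3 for destruction, and dexamethasone activates the glucocorticoid receptor. The passenger complex, built of AURKB, INCENP, survivin (BIRC5) and borealin (CDCA8), corrects chromosome attachments at the centromere and then moves to the middle of the spindle. There PRC1 bundles antiparallel microtubules, ECT2 switches on RHOA to form the contractile ring, and CEP55 later recruits the membrane-cutting machinery to the midbody. Transcripts of these genes are known to accumulate in the G2 and mitotic phases of the cell cycle, under the control of the DREAM complex, B-MYB and FOXM1.

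Values are log2 expression levels as the authors deposited them, so a difference of 1 is a doubling. Levels of different genes come from different probes and are not set against each other. Averaged over the 24 arrays, the 8 probe sets lay between 6.44 (BIRC5) and 9.37 (TOP2A). Means of the plasma cell markers included 10.07 for SDC1, 11.06 for MZB1, 10.72 for XBP1, 9.80 for CD38, 4.92 for POU2AF1, 4.86 for FCRL5 and 4.15 for CD27. Of the 10 plasma cell markers measured, 0 passed the limma test for filanesib, and 0 had an unadjusted p under 0.05. Correlations between arrays ranged from 0.951 to 0.990 over all probe sets. The 3 arrays of pomalidomide alone had the largest residual SD, 0.232, 0.193 and 0.288, against 0.127 to 0.180 in the other arrays.

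All 8 genes rose with filanesib when its 4 differences, one for each background formed by the other drugs, were averaged. The differences, 12 arrays with the drug against 12 without, ranged from 0.37 ± 0.07 for NUSAP1 to 0.67 ± 0.10 for HMMR (SE), which is 1.29-fold to 1.59-fold, with a median of 0.52. Of all genes tested, 1.25% rose in that comparison at a limma adjusted p under 0.05 and 0.148% fell, and the median over all genes was -0.00188. In bulk tumour RNA, a change in the number of cells that carry a transcript and a change in its amount per cell cannot be told apart. Of the 4 macrophage, 5 endothelial, 2 fibroblast, 2 B cell and 2 T cell markers measured, 0 passed the test for filanesib (limma), and 1, the endothelial PECAM1, had an unadjusted p under 0.05.

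**Figure D1:**
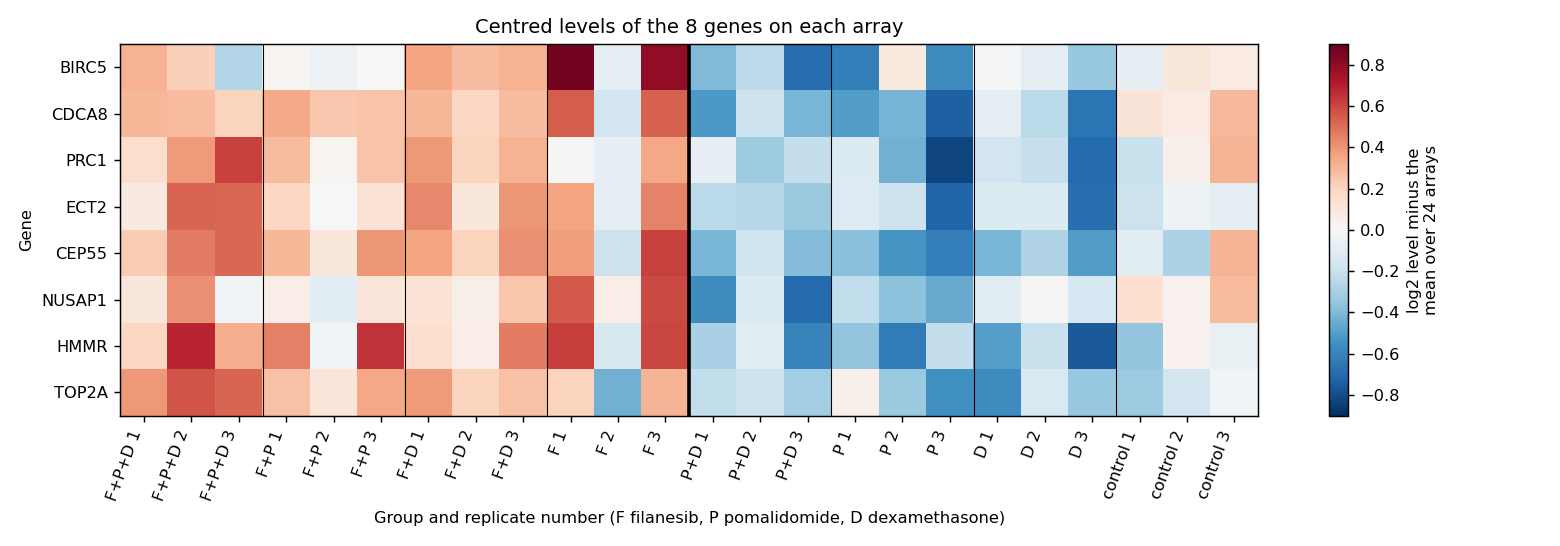
Each cell is the log2 level of a gene (rows) on 1 array (columns) minus that gene's mean over the 24 arrays, with red above and blue below that mean; the thick line separates the 12 arrays with filanesib (left) from the 12 without. The mean over the 8 genes was 0.32 in triple-treated tumours and -0.33 in tumours given pomalidomide with dexamethasone, and filanesib replicate 2 is paler or bluer than its group.

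Survivin (BIRC5, probe set 16838359) is both a passenger subunit and a member of the inhibitor of apoptosis family. Its levels were 6.75, 6.65 and 6.18 in triple-treated tumours and 6.04, 6.20 and 5.75 with pomalidomide plus dexamethasone. Beside pomalidomide, filanesib tumours had 6.46, 6.39 and 6.43, against 5.82, 6.52 and 5.87 with pomalidomide alone. The triple and pomalidomide with dexamethasone groups overlapped by 1 array each. All 3 arrays of filanesib with pomalidomide lay within the range of pomalidomide alone, whose replicate 2 was above them and whose other 2 were below. With dexamethasone, filanesib gave 6.79, 6.72 and 6.75, against 6.43, 6.36 and 6.10 with dexamethasone alone, and these did not overlap. Filanesib alone gave 7.31, 6.36 and 7.24, against 6.36, 6.54 and 6.51 in control tumours. Replicates 1 and 3 of that group were the brightest of all 24 arrays for survivin, and replicate 2 was level with the lowest control. The average rise was 0.46 ± 0.10 (SE, 1.38-fold, limma adjusted p = 0.0203), and 11 of the 12 arrays with filanesib exceeded the median of those without. It did not pass without filanesib replicate 1 (0.42, adjusted p = 0.0503) or replicate 3 (0.43, adjusted p = 0.0507).

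Borealin (CDCA8, probe set 16662648) helps dock the passenger complex on the centromere. It had 7.82, 7.80 and 7.73 in triple-treated tumours, against 7.01, 7.33 and 7.11 with pomalidomide plus dexamethasone. Filanesib with pomalidomide gave 7.87, 7.77 and 7.78, against 7.02, 7.11 and 6.79 with pomalidomide alone. Filanesib with dexamethasone gave 7.82, 7.71 and 7.80, against 7.44, 7.28 and 6.87 with dexamethasone alone. In all 3 comparisons every array with filanesib lay above every array without it. The exception was filanesib with no other drug, at 8.07, 7.35 and 8.06, against 7.64, 7.60 and 7.82 in control tumours, where the groups overlapped. The 3 combinations with filanesib had nearly equal means, 7.78 ± 0.05, 7.81 ± 0.05 and 7.78 ± 0.06 (SD, n = 3 each). The average rise was 0.55 ± 0.08 (SE, 1.46-fold, limma adjusted p = 0.000465), the 15th smallest p of the 14884 genes.

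PRC1 (probe set 16813342), the microtubule bundler of the central spindle, had 7.58, 7.80 and 8.04 in triple-treated tumours, against 7.35, 7.10 and 7.21 with pomalidomide plus dexamethasone. With pomalidomide, filanesib gave 7.71, 7.45 and 7.68, against 7.30, 6.99 and 6.59 for pomalidomide alone. With dexamethasone it gave 7.81, 7.63 and 7.74, against 7.25, 7.21 and 6.73 for dexamethasone alone. Each of these pairs of groups was apart. Against control tumours, at 7.22, 7.47 and 7.73, filanesib alone gave 7.43, 7.35 and 7.77, and the ranges overlapped. The average rise was 0.48 ± 0.09 (SE, 1.40-fold, limma adjusted p = 0.00314), made of differences of 0.58 to 0.66 in the backgrounds with another drug and of 0.04 in the one without. The antisense gene PRC1-AS1, singled out after its values were seen, has a probe set of its own, and its average difference was 0.11 ± 0.10 (limma adjusted p = 0.708).

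ECT2 (probe set 16948021), the exchange factor that activates RHOA at the cell equator, had 6.91, 7.36 and 7.35 in triple-treated tumours, against 6.59, 6.58 and 6.50 with pomalidomide plus dexamethasone. Filanesib with pomalidomide gave 7.02, 6.83 and 6.96, against 6.72, 6.64 and 6.11 for pomalidomide alone. Filanesib with dexamethasone gave 7.27, 6.94 and 7.23, against 6.71, 6.71 and 6.15 for dexamethasone alone. The groups were apart in all 3. Filanesib alone gave 7.19, 6.75 and 7.28, against 6.64, 6.79 and 6.75 in control tumours. Replicate 2 of filanesib alone was the lowest of the 12 arrays with the drug, and the other 11 lay above every array without it. The average rise was 0.52 ± 0.09 (SE, 1.43-fold, limma adjusted p = 0.00143).

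CEP55 (probe set 16707551), the midbody protein that recruits the abscission machinery, had the smallest p of the 8 genes for filanesib. Its levels were 7.38, 7.61 and 7.67 in triple-treated tumours, against 6.74, 6.97 and 6.76 with pomalidomide plus dexamethasone. With pomalidomide, filanesib gave 7.45, 7.25 and 7.54, against 6.78, 6.62 and 6.53 for pomalidomide alone. With dexamethasone the levels were 7.50, 7.35 and 7.56, against 6.74, 6.88 and 6.65 without filanesib. No array crossed in these 3 comparisons. Filanesib alone, at 7.53, 6.96 and 7.77, overlapped control tumours at 7.05, 6.86 and 7.45. The average rise was 0.63 ± 0.08 (SE, 1.55-fold, limma adjusted p = 0.000194), and all 12 arrays with filanesib exceeded the median of those without.

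NUSAP1 (probe set 16799793) bundles spindle microtubules near chromosomes. It had 8.97, 9.28 and 8.84 in triple-treated tumours, against 8.30, 8.74 and 8.17 with pomalidomide plus dexamethasone. Filanesib with pomalidomide gave 8.93, 8.77 and 8.97, against 8.64, 8.50 and 8.42 for pomalidomide alone. Filanesib with dexamethasone gave 8.99, 8.92 and 9.11, against 8.76, 8.88 and 8.71 for dexamethasone alone. The groups were apart in all 3, in the last by a narrow margin. Filanesib alone gave 9.42, 8.93 and 9.46, against 9.02, 8.91 and 9.15 in control tumours. Its average rise, 0.37 ± 0.07 (SE, 1.29-fold, limma adjusted p = 0.00991), was the smallest of the 8.

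HMMR (probe set 16991859), a hyaluronan receptor that also associates with spindle poles, had the largest average rise of the 8, at 0.67 ± 0.10 (SE, 1.59-fold, limma adjusted p = 0.000715). Triple-treated tumours had 7.34, 7.84 and 7.48, against 6.86, 7.06 and 6.56 with pomalidomide plus dexamethasone. With pomalidomide, filanesib gave 7.61, 7.13 and 7.81, against 6.80, 6.53 and 6.94 for pomalidomide alone. With dexamethasone, it gave 7.31, 7.21 and 7.62, against 6.66, 6.95 and 6.40 for dexamethasone alone. These groups did not overlap either. Filanesib alone gave 7.77, 7.01 and 7.76, against 6.80, 7.19 and 7.09 in control tumours, so that 2 of its arrays lay above every control and 1 between them.

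TOP2A (probe set 16844312) is the topoisomerase that untangles sister chromatids. Triple-treated tumours had 9.76, 9.93 and 9.89, against 9.15, 9.18 and 9.06 with pomalidomide plus dexamethasone. Filanesib with pomalidomide gave 9.63, 9.47 and 9.72, against 9.42, 9.04 and 8.81 for pomalidomide alone. With dexamethasone, filanesib gave 9.75, 9.57 and 9.63, against 8.80, 9.23 and 9.03 for dexamethasone alone. All 9 arrays that held filanesib with another drug lay above all 12 arrays without filanesib. Filanesib alone gave 9.57, 8.94 and 9.67, against 9.04, 9.20 and 9.34 in control tumours. The average rise was 0.52 ± 0.08 (SE, 1.43-fold, limma adjusted p = 0.000775).

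**Figure D2:**
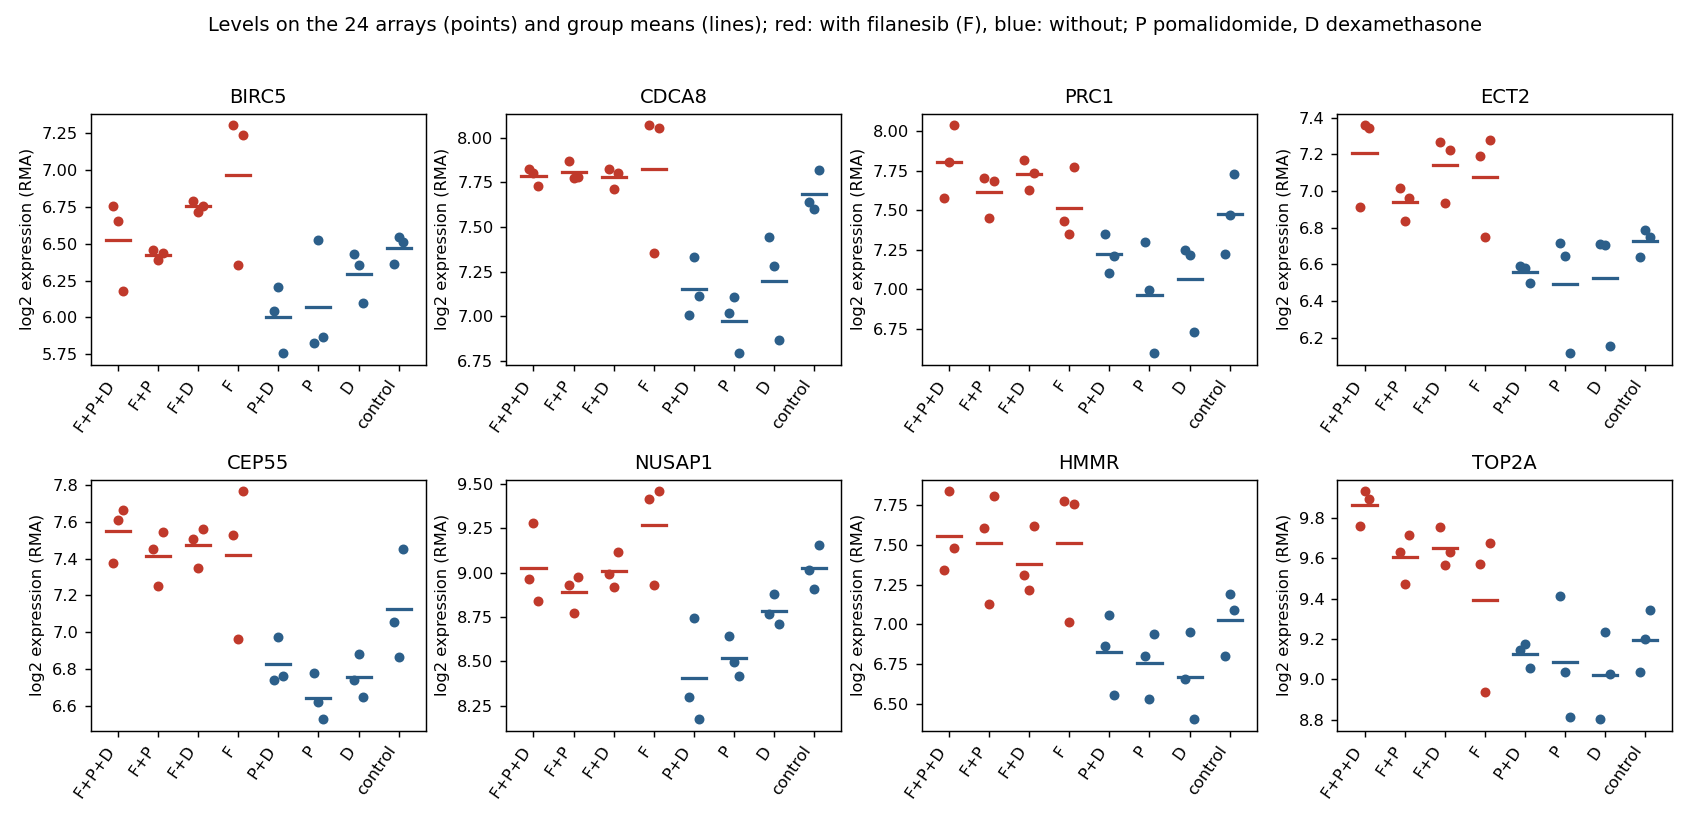
Log2 level (y axis) of each gene on the 24 arrays (points) by treatment group (x axis), with the group mean as a line; red groups received filanesib, blue groups did not. For ECT2 and TOP2A 11 of the 12 red points lie above every blue point, and for all 8 genes at least 1 control point lies above the lowest red point.

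No gene of the 8 separated the 12 arrays with filanesib from the 12 without completely, which 0.0336% of all genes did. Without filanesib replicate 2, ECT2 separated them, with 6.83 as the lowest level with the drug and 6.79 as the highest without, and so did TOP2A, with 9.47 and 9.42. In that setting, chosen after the data were seen, 0.0806% of all genes did so. Replicate 2 of filanesib alone lay below its group mean for all 8 genes, by 0.42 on average. The average deviation of any other array was at most 0.25. Replicate 2 of filanesib with dexamethasone and of filanesib with pomalidomide also lay below for all 8 genes, by 0.11 and 0.14. So did control replicate 1 and pomalidomide with dexamethasone replicate 3, each by 0.12. KIF11, the drug's target, was likewise lowest on replicate 2 of filanesib alone, whose 3 arrays had 9.05, 8.38 and 9.09. Over all backgrounds KIF11 rose by 0.49 ± 0.10 (SE, limma adjusted p = 0.00782).

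The design text of the series asks what filanesib adds to drugs of the pomalidomide class given with dexamethasone, and the triple combination against pomalidomide with dexamethasone is that comparison here. All 8 genes had higher means in triple-treated tumours, by a median of 0.64, from 0.53 ± 0.20 for BIRC5 to 0.74 ± 0.16 for TOP2A (SE, 3 arrays against 3). For 7 of the 8 the groups did not overlap, BIRC5 being the exception, and 7.22% of all genes were apart in this direction. None of the 8 passed the test over all genes (limma), although all 8 had an unadjusted p under 0.05. Their adjusted p ran between 0.115 for TOP2A and 0.515 for BIRC5. In this comparison 0.00672% of all genes passed. Without filanesib replicate 2, which enters only through the pooled spread, CDCA8, CEP55 and TOP2A passed, at adjusted p between 0.0378 and 0.0465. In that setting 17 of the 14884 genes passed, against 1 in the main fit.

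Beside pomalidomide alone, 2 of the 8 genes rose, and 0.255% of all genes did. CDCA8 was higher by 0.83 ± 0.16 (SE, 1.78-fold, limma adjusted p = 0.0278) and CEP55 by 0.77 ± 0.16 (1.71-fold, adjusted p = 0.037). The median over the 8 genes was 0.58, and 7 were apart, against 8.28% of all genes. Without any 1 of the 3 arrays of filanesib with pomalidomide, or without pomalidomide replicate 3, neither gene passed. Without control replicate 1, filanesib with dexamethasone replicate 3 or pomalidomide with dexamethasone replicate 3, CDCA8 passed and CEP55 did not. Array weights and a further quantile normalisation ended both calls. Omission of pomalidomide replicates 1 and 3 leaves 1 array in that group, so that setting cannot decide these calls.

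Beside dexamethasone alone, filanesib gave a median difference of 0.62 and all 8 genes were apart, where 7.06% of all genes were. Of these, 7 had an unadjusted p under 0.05, NUSAP1 being the exception, and 0 passed the adjusted test (limma), which 0.0202% of all genes did. With no other drug, the median was 0.27, between 0.04 for PRC1 and 0.49 for BIRC5, and 0 genes were apart, against 5.62% of all genes. There 2 of the 8, BIRC5 and HMMR, had an unadjusted p under 0.05, and 0 passed the adjusted test, as did 0 of all genes. Without filanesib replicate 2 that median was 0.47 and 7 of the 8 had an unadjusted p under 0.05, again with 0 passing. How many of all genes had such a p in that setting was not counted. BIRC5 then differed by 0.80 ± 0.18 and PRC1 by 0.13. Over all backgrounds and genes, the 32 differences with filanesib were positive, the smallest being 0.04 ± 0.17 (SE) for PRC1 with no other drug. Because the 8 genes vary together, these are not 32 separate results. Of all genes, 46.4%, 53.5%, 51.8% and 49.4% were positive beside pomalidomide with dexamethasone, pomalidomide, dexamethasone and no other drug.

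**Figure D3:**
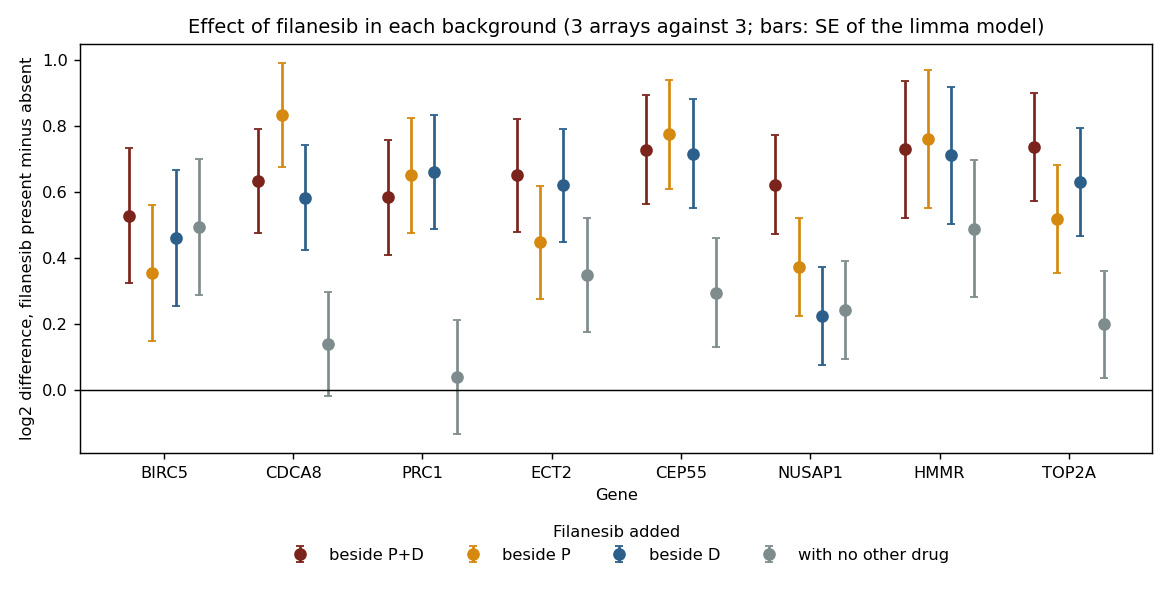
Log2 difference with filanesib present minus absent (y axis) for each gene (x axis) beside pomalidomide plus dexamethasone, pomalidomide, dexamethasone or no other drug; points are estimates from 3 arrays against 3 and bars the SE of the limma model. The grey points, with no other drug, are the lowest for CDCA8, PRC1, ECT2, CEP55, HMMR and TOP2A but not for BIRC5 or NUSAP1.

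Whether filanesib acts differently where another drug is present was tested directly. The average effect of filanesib with pomalidomide minus that without it had a median of 0.23 over the 8 genes. For CDCA8 it was 0.37 ± 0.16 (SE, 95% interval 0.04 to 0.70, limma adjusted p = 0.677), and BIRC5 had -0.04 ± 0.20. CDCA8 was the 1 gene of the 8 with an unadjusted p under 0.05. Without filanesib replicate 2 the median was 0.11, and 0 of the 8 had an unadjusted p under 0.05. For dexamethasone, the corresponding median was 0.15, with 0 of the 8 at an unadjusted p under 0.05, and it was 0.05 without filanesib replicate 2. For pomalidomide by dexamethasone it was 0.28, with 1 such gene, CDCA8 (0.35 ± 0.16). Without filanesib replicate 2 this median was 0.37, with 5 such genes. Among all genes, 821 had such a p for pomalidomide by dexamethasone in the main fit. There 56.5% of all genes were positive, with a median of 0.0247. The number of all genes with such a p without filanesib replicate 2 was not counted. In these 3 tests 0 of the 8 genes passed after adjustment, and 0% of all genes did. No difference between backgrounds was therefore detected after adjustment, and with intervals this wide equal effects were not shown.

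Pomalidomide on average lowered 2 of the 8 genes, where 2.65% of all genes fell and 2.21% rose. NUSAP1 fell by 0.31 (-0.31 ± 0.07, SE, 12 arrays with the drug against 12 without, limma adjusted p = 0.0158). BIRC5 fell by 0.37 (-0.37 ± 0.10, adjusted p = 0.038), a call that was lost in 18 of the 24 fits that left out 1 array. CDCA8 differed by -0.19 ± 0.08 without passing (adjusted p = 0.191). The remaining 5 lay between -0.08 for CEP55 and 0.11 ± 0.08 for TOP2A, whose 95% interval ran from -0.06 to 0.27. For HMMR the difference was 0.01 ± 0.10, with an interval of -0.20 to 0.23. Of the 10 plasma cell markers, 2 passed for pomalidomide: IRF4, a transcription factor of plasma cells, fell by 0.54 (-0.54 ± 0.11, adjusted p = 0.00557), and the surface enzyme CD38 rose by 0.18 ± 0.05 (adjusted p = 0.0304). The macrophage marker CD68 rose by 0.99, the 1 of 4 macrophage markers that passed. The other three differed by -0.01 (CD14), -0.01 (CSF1R) and 0.04 (CD163) and had means of 3.07, 4.37 and 2.95, against 9.49 for CD68. The linear sum of those 4 markers, which is nearly all CD68, was 868 to 1149, 912 to 1404, 1053 to 1307 and 828 to 1215 in the triple, filanesib with pomalidomide, pomalidomide with dexamethasone and pomalidomide groups. It was 516 to 698, 493 to 575, 520 to 581 and 416 to 624 in the filanesib with dexamethasone, filanesib, dexamethasone and control groups. The part of these markers in the falls of NUSAP1 and BIRC5 was not tested.

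Both genes can be followed over the 4 backgrounds, between which the tests above found no difference that passed. For NUSAP1 the value was -0.51 ± 0.15 with pomalidomide alone against control, -0.38 ± 0.15 beside filanesib, -0.38 ± 0.15 with dexamethasone and 0.02 ± 0.15 when both were present. For BIRC5 the corresponding values were -0.40, -0.54, -0.30 and -0.23 (SE 0.20 each), all negative. None of these 8 values passed singly. Among all genes, 0.249% passed for pomalidomide beside filanesib, 0.0269% with dexamethasone and 0.0269% with both present. The pomalidomide with dexamethasone group was the lowest of the 8 for both genes.

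Against control tumours, pomalidomide alone gave negative differences for all 8 genes, with a median of -0.44. CDCA8, at 6.97 ± 0.16 with pomalidomide and 7.69 ± 0.11 in control tumours (SD, n = 3 each), fell by 0.71 (-0.71 ± 0.16, SE, limma adjusted p = 0.0231), as 1.47% of all genes fell. It did not pass without control replicate 1 or 3, without pomalidomide replicate 3, or with array weights (limma adjusted p = 0.0868). NUSAP1 had an adjusted p of 0.0782, PRC1 (-0.51) of 0.127 and CEP55 (-0.48) of 0.129. The groups were apart for CDCA8, CEP55 and NUSAP1, where 9.06% of all genes were apart downward. In the other backgrounds the difference for CDCA8 with pomalidomide was -0.02 beside filanesib, -0.05 beside dexamethasone and 0.005 beside both.

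Dexamethasone changed 0 of the 8 genes on average (limma, 0 also at an unadjusted p under 0.05), and 0.0134% of all genes passed. The differences lay between -0.12 for NUSAP1 and 0.09 for TOP2A. Alone against control it gave 8 negative differences, with a median of -0.30. CDCA8 had -0.49 ± 0.16 and PRC1 -0.41 ± 0.17, and 3 genes, these and CEP55, had an unadjusted p under 0.05 while 0 passed after adjustment, against 0.00672% of all genes. CDCA8 and NUSAP1 were apart, and 6.05% of all genes were apart downward.

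**Figure D4:**
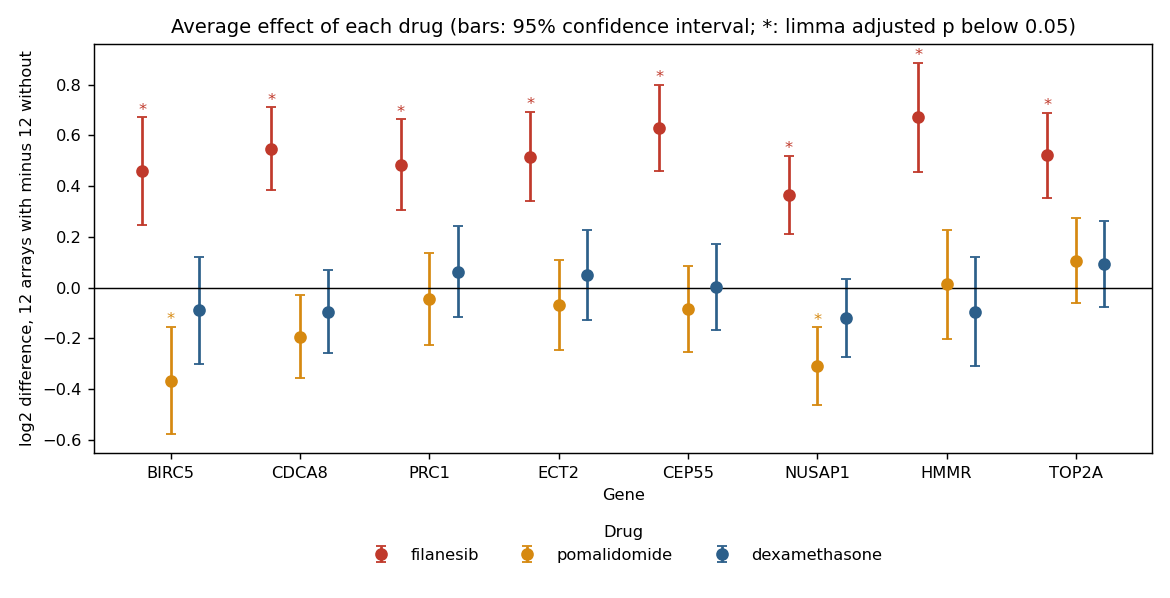
Average log2 difference with each drug (y axis, 12 arrays with the drug minus 12 without) for each gene (x axis); bars are 95% confidence intervals and a star marks a limma adjusted p under 0.05. All 8 filanesib intervals lie above 0, BIRC5 and NUSAP1 carry a star below 0 for pomalidomide, and every dexamethasone interval includes 0.

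The combinations can also be set beside control tumours, bearing in mind that these comparisons share the 3 control arrays. In triple-treated tumours all 8 means were above control, by a median of 0.38. TOP2A was 0.67 ± 0.16 higher (SE, limma adjusted p = 0.0779), HMMR 0.53 ± 0.21 and ECT2 0.48 ± 0.17, and these 3 were apart, against 8.79% of all genes. NUSAP1 (0.003 ± 0.15) and BIRC5 (0.06 ± 0.20) were at the control level within their error. Filanesib with dexamethasone gave 7 positive differences, and 4 genes, BIRC5, ECT2, HMMR and TOP2A, were apart upward. Filanesib with pomalidomide gave 6, and 2 genes, ECT2 and TOP2A, were apart upward. The shares of all genes apart in these 2 comparisons are not given here. In the pomalidomide with dexamethasone group all 8 were negative, with a median of -0.28, and BIRC5, CDCA8, ECT2 and NUSAP1 were apart, where 7.79% of all genes were apart downward. NUSAP1 there had -0.62 ± 0.15 (adjusted p = 0.105). In these 4 comparisons 0 of the 8 genes passed (limma), while 4, 3, 2 and 3 of them had an unadjusted p under 0.05 in the triple, filanesib with dexamethasone, filanesib with pomalidomide and pomalidomide with dexamethasone groups. The shares of all genes that passed were 0.255%, 0%, 0.141% and 0.161%.

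The order of the groups was not the same for every gene. Filanesib alone was highest for BIRC5, CDCA8 and NUSAP1, and the triple combination for PRC1, ECT2, CEP55, HMMR and TOP2A. For CDCA8, the 4 groups with filanesib spanned 7.78 to 7.83 and did not differ beyond their spread. The lowest group was pomalidomide for CDCA8, PRC1, ECT2 and CEP55, pomalidomide with dexamethasone for BIRC5 and NUSAP1, and dexamethasone for HMMR and TOP2A. Averaged over the 8 centred genes, the triple group had 0.32, filanesib with pomalidomide 0.18, filanesib with dexamethasone 0.27 and filanesib 0.28. The same mean was -0.33 with pomalidomide plus dexamethasone, -0.41 with pomalidomide, -0.31 with dexamethasone and -0.004 in control tumours.

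Across the 24 arrays the 8 genes varied together, in points that share the 8 treatment groups. Pearson correlations of the 28 pairs ran from 0.52 for BIRC5 with PRC1 or TOP2A to 0.91 for CDCA8 with CEP55, with a median of 0.82. After the group means were removed they ran from 0.15, for BIRC5 with PRC1, to 0.84, for PRC1 with ECT2, with a median of 0.62. The arrays of filanesib alone, with mean deviations of 0.16, -0.42 and 0.25, weigh most in these values. The correlations were not computed without that group. CEP55 followed the mean of the other 7 most closely (r = 0.96) and BIRC5 least (r = 0.74).

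The 10 other genes most like the mean of the 8 over the 24 arrays were KNSTRN (r = 0.955), KIF23 (0.942), BUB1B (0.942), CDCA2 (0.939), BUB1 (0.937), CCNA2 (0.936), NDC80 (0.932), PBK (0.932), GPSM2 (0.924) and TTK (0.919). KNSTRN is a kinetochore and spindle protein, KIF23 the motor subunit of centralspindlin, and BUB1B and TTK are proteins of the spindle checkpoint. NDC80 attaches microtubules to the kinetochore, GPSM2 orients the spindle, and CCNA2 is cyclin A2. All 10 rose in the average effect of filanesib, by 0.42 for BUB1B to 0.65 for PBK, on the same arrays that defined the likeness.

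Among the partners of the passenger complex and the centromere, 6 of 8 rose with filanesib, 0 fell, and the median was 0.43. SGO1, which protects centromeric cohesion, rose by 0.65 ± 0.09 (SE, limma adjusted p = 0.000477). INCENP, the scaffold of the complex, rose by 0.46 ± 0.08 (adjusted p = 0.00219). BUB1 and HASPIN write the histone marks that recruit the complex to the centromere, and they rose by 0.63 ± 0.06 and 0.40 ± 0.08. PLK1 rose by 0.63 ± 0.07. AURKB, the catalytic subunit, named after its values were seen, rose by 0.38 ± 0.08 (adjusted p = 0.00936), so that all 4 subunits of the complex passed. The remaining 2, SGO2 (0.27, adjusted p = 0.065) and AURKC (-0.02), both dim at means of 3.80 and 3.89, did not pass. With pomalidomide 1 of these 8 fell, HASPIN by 0.32 (-0.32 ± 0.08, adjusted p = 0.0214). In triple-treated tumours against pomalidomide with dexamethasone, BUB1 was the 1 gene tested that passed, at 0.80 ± 0.13 (adjusted p = 0.0423), a call lost in 17 of the 24 fits that left out 1 array.

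Of 17 listed central spindle and cleavage furrow genes 12 were measured, and 6 rose with filanesib, 0 fell, with a median of 0.39. They were ARHGAP11A (0.78 ± 0.11), whose probes can share sequence with its near copy ARHGAP11B, and 5 kinesins. KIF14 rose by 0.72 ± 0.13, KIF20A, which carries the passenger complex to the central spindle, by 0.54 ± 0.08, and KIF23 by 0.51 ± 0.09. KIF20B (0.64) and KIF4A (0.47), named after their values were seen, complete the 6. RACGAP1, the partner of KIF23 and activator of ECT2, was dim at a mean of 3.20 and had 0.31 ± 0.09 (adjusted p = 0.098). RHOA, the GTPase on which ECT2 acts, had 0.09 ± 0.06 and was named after its values were seen. With pomalidomide 0 of the 12 passed (limma), while RACGAP1 and DIAPH3 had an unadjusted p under 0.05.

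The abscission genes, which include the machinery that CEP55 recruits, were measured in part. PDCD6IP, CHMP3 and ZFYVE19 were not named by the probe table. Of 18 listed abscission genes 15 were measured, and 0 passed with filanesib (limma), with a median of -0.01 and a range of -0.15 to 0.19. VPS4A, the ATPase that recycles the cutting filaments, had 0.19 ± 0.07 (adjusted p = 0.206). TEX14, known in mice to block CEP55 in germ cells, had 0.13 ± 0.06 with filanesib and rose by 0.23 with pomalidomide (adjusted p = 0.031) at a mean level of 3.48. These 2 were the ones with an unadjusted p under 0.05 for filanesib.

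Of 12 listed condensin and topoisomerase genes 6 were measured and 2 rose with filanesib, MKI67, which coats mitotic chromosomes, by 0.37 (adjusted p = 0.0229) and the chromokinesin KIF22 by 0.32 (adjusted p = 0.0223). The condensin subunit SMC2 had 0.42 ± 0.13 (adjusted p = 0.132), and TOP2B, the paralogue of TOP2A, had -0.02 and was named after its values were seen. Of 12 listed genes of spindle assembly by RAN and TPX2, with which NUSAP1 and HMMR act, 5 were named by the probe table. RAN and TPX2 themselves were not among them. Of those 5, 2 rose, AURKA by 0.56 (limma adjusted p = 0.00216) and CKAP2 by 0.45 (adjusted p = 0.00219). With pomalidomide KIF22 fell by 0.28 (-0.28, adjusted p = 0.0277).

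Relatives of survivin were set beside it. Of 6 listed members of the inhibitor of apoptosis family 4 were measured, and 0 passed with filanesib (limma, 0 also at an unadjusted p under 0.05), with differences from -0.11 to 0.10.

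Among regulators of late cell cycle genes, 9 of 11 listed were measured and 4 rose with filanesib. FOXM1 rose by 0.47 (adjusted p = 0.00315), RBL1, the p107 pocket protein, by 0.43 (adjusted p = 0.00758), and the MuvB subunits LIN54 by 0.27 (adjusted p = 0.00701) and LIN9 by 0.29 (adjusted p = 0.0378). With pomalidomide 2 of the 9 fell, B-MYB (MYBL2) by 0.64 (-0.64, adjusted p = 5.01e-05) and E2F1 by 0.53 (-0.53, adjusted p = 0.00519).

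**Figure D5:**
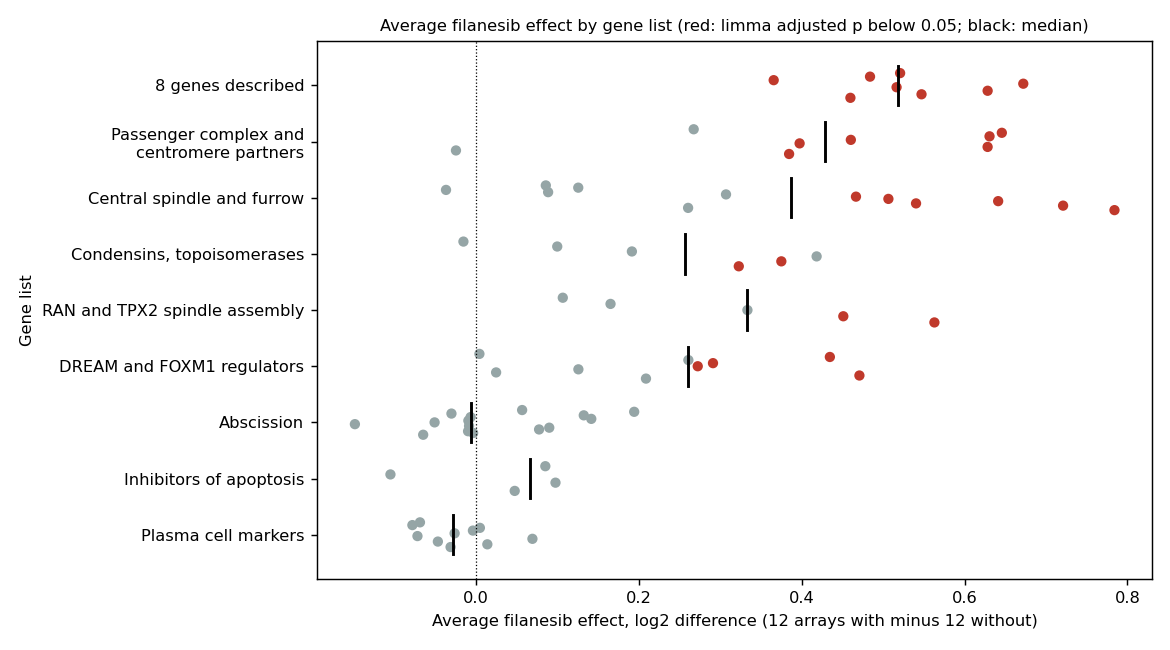
Average log2 difference with filanesib (x axis, 12 arrays with minus 12 without) of each measured gene (points) by gene list (y axis), with the list median as a black bar; red points passed a limma adjusted p under 0.05. The 8 genes described have a median of 0.52, passenger complex and centromere partners 0.43 and central spindle genes 0.39, whereas abscission genes centre on -0.01.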

How the data were processed

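Tumour RNA was measured on 24 Affymetrix human gene arrays. The authors made the deposited log2 expression values with RMA (background correction, quantile normalisation, probe summary) using Affymetrix Expression Console, as named in the submitters' processing notes. Its version is not given in the sources used here. Quantile normalisation hides a change shared by most genes. Of 53617 probe sets, 16098 carry 1 symbol and 37519 none. For the 779 genes with several, the brightest on average was used, which left 14884 genes. A listed gene is called measured where the probe table names it, so list counts and medians rest on the named part. Whether probe sets without a symbol cover the other listed genes was not examined. Group means were fitted to the 24 arrays with limma 3.58.1 in R 4.3.3 (16 residual degrees of freedom, eBayes), with two-sided p-values adjusted by the Benjamini-Hochberg method over all genes within each comparison and a threshold of 0.05. Precision is limited by the number of arrays, with a median SE of 0.14 between 2 groups and 0.07 for an average effect. The scripts were tested on simulated data. Replicate numbers were not used as pairs in the main fit.

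Members, lists and tests were chosen with earlier results of these data known. Genes named besides the 8 are the 10 most correlated with their mean, up to 4 per list with the smallest p for filanesib and up to 2 for pomalidomide, and KIF11; exceptions are marked. Marker lists follow textbook cell type genes. Alternatives were a further quantile normalisation, centring, array weights, omission of dim genes, a trended and robust prior, a replicate block, every named probe set, a fit on the compared groups and omission of arrays. Sequences and promoter motifs were not analysed here. The result of 1 gene list is not reported here.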

Additional observations from a re-analysis of the deposited data

How the results depend on the processing

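The 8 filanesib rises kept their direction under all alternatives run. Of the 8 genes, 7 to 8 passed when each array was left out in turn. All 8 passed under the other settings that kept more than 1 array in each group. For pomalidomide, 2 genes passed, and 1 to 3 when 1 array was left out, with CDCA8 as the third without filanesib replicate 2. Omitting pomalidomide replicates 1 and 3 leaves 1 array in that group, replicate 2, which had its highest BIRC5 level. BIRC5 then had 0.35 with filanesib and -0.25 with pomalidomide. For triple treatment against pomalidomide with dexamethasone, 0 passed, 0 to 3 when 1 array was left out, 5 with array weights (CDCA8, ECT2, CEP55, NUSAP1 and TOP2A) and 0 in a fit on the 6 compared arrays. Over all genes, that comparison had 1 call in the main fit, 82 with array weights and 17 without filanesib replicate 2. Over the 16 pairwise differences, 3 calls were made, and 1 to 7 when 1 array was left out (7 without filanesib replicate 2). A further quantile normalisation gave 1 call and array weights 9. With array weights the 3 calls of the main fit were lost. Complete separation of the 12 arrays with filanesib from the 12 without held for 0 genes and for 0 to 2 when 1 array was left out. The average dexamethasone effect and the 3 interactions had 0 calls throughout.

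Values near 0 changed sign. The CEP55 difference with dexamethasone was 0.0017 and became -0.00834 with a further quantile normalisation, -0.012 with array weights and -0.056 to 0.045 when 1 array was left out. The HMMR difference with pomalidomide was 0.014 and became -0.083 with array weights, -0.043 without pomalidomide replicates 1 and 3 and -0.049 to 0.062 when 1 array was left out. The PRC1 difference with pomalidomide ran from -0.087 to 0.0012 when 1 array was left out. The cause of these changes was not tested.

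Over all genes, filanesib raised 186 and lowered 22. A further quantile normalisation gave 153 and 43, array weights 268 and 62. Leaving out 1 array gave 130 to 318 calls, with the extremes at filanesib with dexamethasone replicate 1 and pomalidomide replicate 1. Pomalidomide changed 723 genes, and 1210 with array weights. Over all genes, deviations of same-numbered arrays in different groups had median correlations of -0.004, -0.029 and -0.033 for replicates 1, 2 and 3. For 2 of 24 arrays, the mean correlation with arrays of other groups was highest for their own number. For the 8 genes, replicate 2 was below its group mean throughout in filanesib, filanesib with dexamethasone and filanesib with pomalidomide. In the triple group, replicate 2 was above for 7 of them. With the replicate number as a block the 8 filanesib calls, the 2 pomalidomide calls and the 3 pairwise calls were made as before, and the BUB1 call was lost (adjusted p = 0.0813). With 3 arrays a group, adjusted tests between pairs of groups had a median SE of 0.14.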
